A study of Homo sapiens with 40 samples.

Results

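Of the 40 arrays of the series, 3 hold the first hour of IL-6 in OCI-Ly10 cells, with 1 array at 30 min and 2 at 1 h, and these were used to describe the immediate response of the cells across genes. OCI-Ly10 is an established human line from a diffuse large B cell lymphoma of the activated (ABC) subtype. The arrays were chosen by their titles alone, and no measured value entered the choice. On each array the Cy5 channel held RNA of cells given IL-6 at 50 ng/ml, and the Cy3 channel held RNA of OCI-Ly10 cells for which the labels list no treatment. All 3 arrays share the line and the dose, and time differs between 30 min and 1 h. The 30 min array and 1 h replicate 1 have neighbouring identifiers, whereas that of 1 h replicate 2 lies apart, in another run of identifiers. The design text speaks of replicates at each time point, but the labels hold 1 array at 30 min and number the 1 h arrays 1 and 2. They do not say whether these came from separate cultures or whether the arrays shared control RNA. The p-values rest on a spread that the fit pools over time points with replicate arrays throughout the series, and that spread may be technical. Within the first hour only the 2 arrays at 1 h add to it. The series also holds OCI-Ly10 arrays of IL-6 at 3, 6 and 24 h, of JAK inhibitor I and of a STAT3 siRNA pool against cells electroporated with no siRNA. Other arrays hold IL-10 in OCI-Ly3, another line of the same lymphoma type, and an inducible IkB super-repressor in both lines. A single line and dose of IL-6 were measured, so the values describe this line.

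IL-6 binds its receptor chain IL6R, and the complex brings together gp130, the signalling chain encoded by IL6ST. Kinases of the JAK family bound to gp130 then phosphorylate STAT3, which enters the nucleus and switches on target genes, while adaptors such as PTPN11 and GRB2 open the RAS-ERK branch. Among the first STAT3 targets is SOCS3, whose protein binds gp130 and shuts the signal off again. In this form of lymphoma STAT3 and NF-kB are commonly active before any cytokine is added, and IL-6 and IL-10 are known products of the tumour cells.

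Ratios were deposited as log values of Cy5 over Cy3 with no base or direction stated. They were read as log2 of IL-6-treated over control, and folds hold only for base 2. On the STAT3 siRNA arrays of 24 and 48 h, read the same way, STAT3 itself stood at -1.46, -2.26, -1.74 and -0.89, so the targeted gene was lower on each of these 4 arrays. The 3 first-hour arrays gave values for 9032, 9849 and 12470 of 15246 probes at 30 min, in 1 h replicate 1 and in 1 h replicate 2. The SD over probes was 0.337 at 30 min, against 0.281 and 0.310 on the 1 h arrays. Across genes, which are not independent replicates, the 30 min array correlated with 1 h replicate 1 at r = 0.489 and with 1 h replicate 2 at r = 0.367, and the 1 h arrays with each other at r = 0.379. With the 3 h and 6 h arrays of its own run, 1 h replicate 2 correlated at r = 0.561 and 0.397. For 1 h replicate 1 these values were 0.091 and 0.332. Over the series limma put the correlation within a run at 0.269, whereas the main fit takes the arrays as independent. Only ratios were used here, with no channel intensities, so neither the level of a gene nor its signal over background can be given, and the identity of the line cannot be checked against markers by level.

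SOCS3, the feedback inhibitor of gp130, rose most in the first hour (1.85 ± 0.14 on the log2 scale, 3.60-fold). Such values are the mean of the 3 arrays ± the SE from the fit to all 40 arrays. IL10, which encodes the anti-inflammatory cytokine interleukin-10, came next (1.29 ± 0.17, 2.45-fold). The transcription regulators ID2, JUNB and BCL3 and the phosphatase gene DUSP2 rose by 1.02 to 1.14. Of the genes that fell, NCL, which encodes the nucleolar protein nucleolin, was the only one past 1 (it fell by 1.20 ± 0.27). The median called gene was at 0.53 among those that rose and at -0.53 among those that fell. Of 3119 genes with a value on all 3 arrays, 70 passed (2.24% of those tested), 51 higher (1.64%) and 19 lower (0.609%), by limma's moderated test with Benjamini-Hochberg adjusted p under 0.05. Of the 51 higher genes 6 lay at 1 or more, 24 between 0.5 and 1, and 21 below 0.5. All 70 had 1 sign on all 3 arrays, as 46.8% of all genes tested had. Of the 70, 7 had no probe with a value on all 3 arrays, and 45 kept their call on probes measured on every array. With each array scaled to the same spread the count was 202 (115 higher, 87 lower), and with the arrays of the IL-6 experiment alone it was 126 (60 higher, 66 lower). With the run of arrays as a random block 52 of the 70 still passed, 41 of the 51 higher genes and 11 of the 19 lower ones. With the mean ratio of the other 5 experiments subtracted, 29 of the 51 higher genes and 3 of the 19 lower genes still passed. This removes what a probe shows on every array, but also any response within the other experiments. That fit gives each of them 1 mean, so changes over their time courses add to its error. SH2B1 lost its call there although its value went from -0.53 to -0.62 (adjusted p = 0.124 in limma). The count was 30 without the 30 min array, 41 without replicate 1 of the 1 h arrays and 68 without replicate 2, and these included 20, 30 and 42 of the 70. The 10 genes that passed under every alternative and without each array were SOCS3, IL10, ID2, JUNB, DUSP2, BCL3, EMB, TAC4 and IL13RA2 among the higher and RAP1GAP2 among the lower. EMB, TAC4, IL13RA2 and RAP1GAP2 each had 1 probe with a value on these arrays. Alternatives that change how probes are chosen or summarised could not change their estimates.

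**Figure D1:**
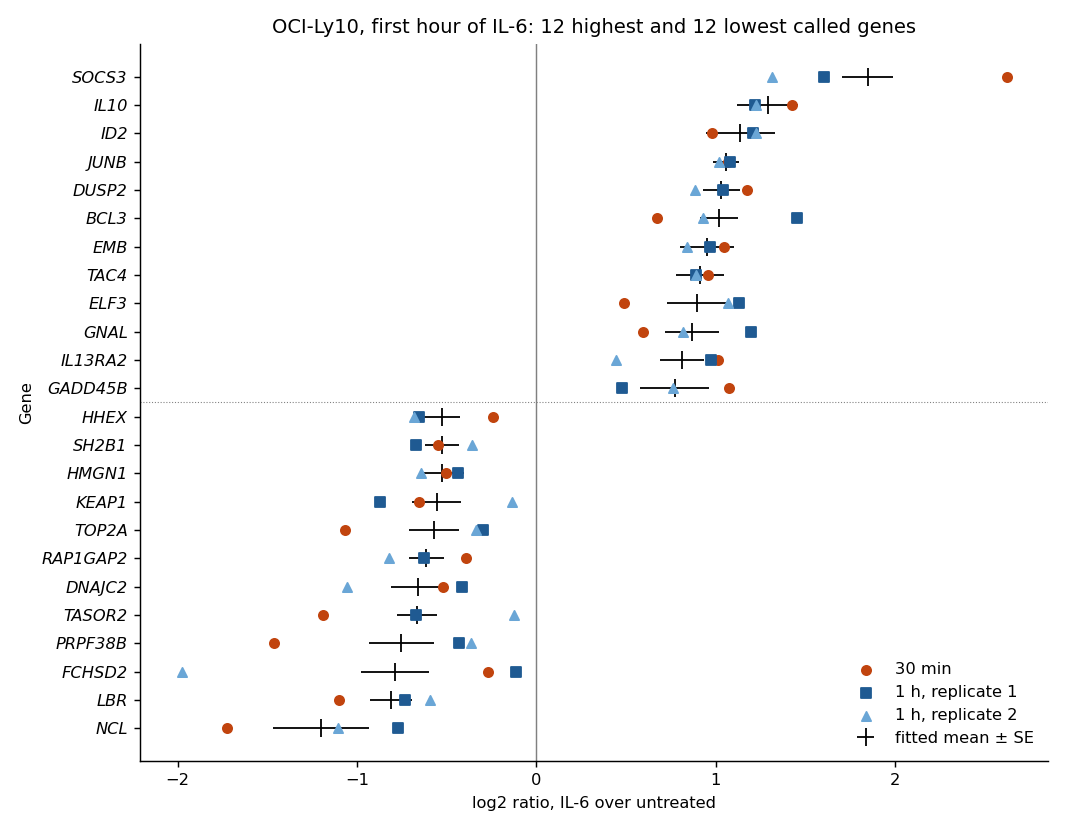
Log2 ratios of IL-6-treated over control OCI-Ly10 cells (horizontal axis) for 12 genes called higher and 12 called lower, those furthest from 0 (vertical axis); symbols are single arrays, and black bars are the fitted mean and SE. The 30 min value of SOCS3, 2.62, is the furthest from 0, while the 3 JUNB values lie between 1.02 and 1.08.

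Promoter sequence was set beside the genes that rose, since members of the group moved together. Starts and sequences were those of RefSeq on GRCh38.p14, which matched 40 of the 51 higher genes and 16 of the 19 lower ones. The 250 bases before each start were searched on both strands for TTCNNGAA, TTCNNNGAA and TTCNNNNGAA, 3 spacings of the palindrome that STAT factors bind, for TATAAA, for TGACGTCA, bound by CREB, and for TGANTCA, bound by AP-1. Of the higher genes 5 held TTCNNGAA (12.5%, against 8.12% of all 27305 genes in the table), 2 held TTCNNNGAA (8.09% of all) and 2 held TTCNNNNGAA (6.55% of all). SOCS3 held the first of these, 215 bases before one of its 2 listed starts (chr17:78360926-78361175, minus strand). It is shown because SOCS3 rose most, with the match in capitals:
SOCS3: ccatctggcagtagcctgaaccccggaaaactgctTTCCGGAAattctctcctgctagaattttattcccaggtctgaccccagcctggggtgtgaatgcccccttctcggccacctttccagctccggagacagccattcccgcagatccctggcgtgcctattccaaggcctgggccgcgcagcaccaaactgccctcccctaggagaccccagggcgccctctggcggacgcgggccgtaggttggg

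The letters TATAAA, the core of a TATA box, were in the 250 bases of 10 of the 40 higher genes (25%), of 2 of the 16 lower genes (12.5%) and of 3563 of all 27305 genes (13.0%). In 7 of the 40 (17.5%) they began 25 to 35 bases before a start on the strand of the gene, a window chosen after these sequences were seen. That was so for 750 of all genes (2.75%), for 3.98% of the 2590 tested genes with a promoter and for none of the 16 lower genes. TGANTCA was in 3 of the 40 (8.06% of all genes) and TGACGTCA in none (2.03% of all genes). These shares are descriptions with no test, and no match says only that the letters are not in this window. The last 60 bases before the start are shown for 6 of the 7 genes, because these genes rose and share the letters at this place, with TATAAA in capitals:
JUNB: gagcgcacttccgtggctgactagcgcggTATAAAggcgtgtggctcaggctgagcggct
IL10: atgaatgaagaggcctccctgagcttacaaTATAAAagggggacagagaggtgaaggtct
CCL3: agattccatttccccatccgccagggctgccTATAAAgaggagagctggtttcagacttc
GADD45B: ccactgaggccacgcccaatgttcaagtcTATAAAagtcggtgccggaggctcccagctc
ELF3: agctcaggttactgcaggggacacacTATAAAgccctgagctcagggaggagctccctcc
TNFSF9: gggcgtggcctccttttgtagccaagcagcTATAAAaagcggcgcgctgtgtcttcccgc
These lie, on the plus strand unless said otherwise, at chr19:12791426-12791485 for JUNB, chr1:206772495-206772554 (minus strand) for IL10, chr17:36090144-36090203 (minus strand) for CCL3, chr19:2476067-2476126 for GADD45B, chr1:202010527-202010586 for ELF3 and chr19:6530966-6531025 for TNFSF9. The capitals begin 31 bases before the start of JUNB and GADD45B, 30 before that of IL10 and TNFSF9, 29 before that of CCL3 and 34 before that of ELF3.

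Of 32 genes of the gp130 pathway tested, 2 rose and none fell (1.64% of all genes tested were called higher and 0.609% lower). Both were SOCS genes, which block JAK kinases, and both belong to the 12 inhibitors tested, whose median was 0.00. No ligand, receptor, kinase, STAT or adaptor passed the test. SOCS3 stood at 2.62 at 30 min, 1.60 in 1 h replicate 1 and 1.31 in 1 h replicate 2, so all 3 arrays were well above 0 and 30 min was the highest. The value of 1 h replicate 2 averages more probes than the others. The single SOCS3 probe with a value on all 3 arrays gave 2.62, 1.60 and 2.34, and the other 2 probes, measured in 1 h replicate 2 alone, gave 0.84 and 0.76. On that probe alone the mean was 2.19. SOCS1 stood at 0.28, 0.41 and 0.33 (0.34 ± 0.08, adjusted p = 0.032 in limma), with 1 of its 3 probes at 0.69, 0.94 and 1.31 and the other 2 between -0.23 and 0.23. With the median of its probes SOCS1 was at 0.10 and lost its call (adjusted p = 0.617 in limma), as it did without any of the 3 arrays (0.30 to 0.37). CISH, another STAT-induced SOCS gene, was at -0.09 at 30 min and at 0.50 and 0.97 at 1 h. It missed the threshold over the hour (0.46 ± 0.14, adjusted p = 0.092 in limma) and passed at 1 h (0.74 ± 0.17, adjusted p = 0.048 in limma). With the replicate numbers as a block it passed over the hour as well (adjusted p rounded to 0.05 in limma). SOCS2 gave 0.17, 0.84 and 0.27 and did not pass, though its probe measured on all 3 arrays gave 0.17, 0.84 and 0.74 and passed on its own (adjusted p = 0.0096 in limma).

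The receptor chains gave small or uneven ratios. IL6ST, which encodes gp130 and had 6 probes, gave 0.13, 0.00 and -0.16. IL6R, the IL-6-binding chain, gave -0.74, -0.03 and 0.02. Its 30 min value, which passed at that time on its own (-0.74 ± 0.13, adjusted p = 0.0052 in limma), rested on 1 probe. The kinase JAK1 gave -0.29, 0.03 and -0.33, and STAT3 gave -0.34, -0.39 and -0.12 (-0.28 ± 0.19), all 3 below 0 and none of it past the threshold. The adaptor GRB2 gave -0.46, -0.41 and -0.28 on its single probe, also without passing. The 5 ligands tested lay between 0.10 and 0.29 over the hour, IL6 itself at 0.18 ± 0.16. Over all 32 genes the median was -0.01, the same as over all genes tested (-0.01).

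**Figure D2:**
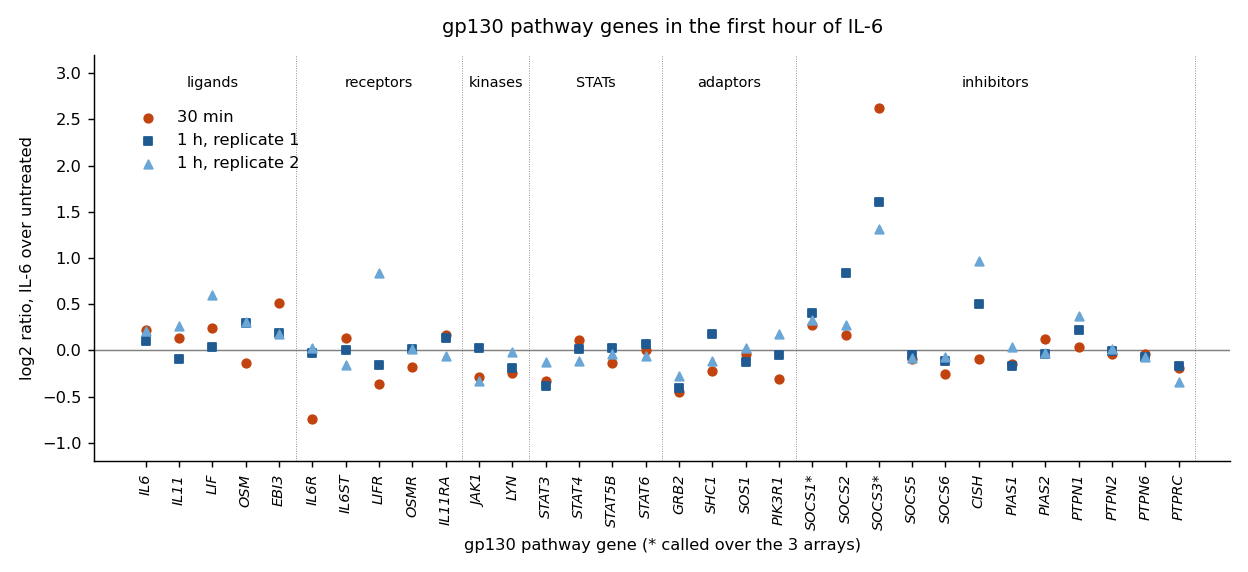
Log2 ratios of the 32 tested gp130 pathway genes (horizontal axis, grouped by role) on the 30 min array and both 1 h arrays (symbols); an asterisk marks a gene called over the 3 arrays. SOCS3 stands between 1.31 and 2.62, apart from the ligands, receptors, kinases and STATs, whose mean ratios lie between -0.28 and 0.29.

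Of the 39 STAT3 targets tested, 6 rose and none fell: SOCS3, IL10, JUNB, BCL3, GPR183 and SOCS1. Of all genes tested 1.64% were called higher and 0.609% lower. The median of the targets was 0.21, against -0.01 for all genes tested. This list, like the other gene lists, was chosen with earlier results of these data known. The shares and medians of the lists are therefore descriptions and test nothing. BCL3, a nuclear IkB protein that works with p50 and p52 NF-kB, stood at 0.67 at 30 min, 1.45 in 1 h replicate 1 and 0.93 in 1 h replicate 2 (1.02 ± 0.11, adjusted p = 4.7e-06 in limma). Both 1 h arrays lay above the 30 min array, and its 3 probes had means of 0.96 to 1.08. GPR183, a receptor that guides B cells within lymphoid follicles, stood at 0.57, 0.84 and 0.62, and its 4 probes were above 0 on all 3 arrays. Its call was lost without any 1 of the arrays (0.60 to 0.73, adjusted p up to 0.135 in limma), and with the mean of the other experiments subtracted it was at 0.43 (adjusted p = 0.681 in limma). Several genes often named as STAT3 targets did not pass. PIM3, a survival kinase gene, was at 0.25, 0.41 and 0.41 (adjusted p = 0.064 in limma), while its relative PIM1 was at 0.01, -0.05 and -0.03. MYC, the growth regulator, was at 0.23, 0.31 and 0.41 (0.32 ± 0.18), above 0 on each array and on each of its 4 probes, and did not pass with the error of the fit. MCL1, which protects cells from apoptosis, was at 0.13 ± 0.08, and BCL2L1 at -0.04.

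The immediate-early genes, which cells transcribe without first making protein, had 7 of 35 tested that rose and none that fell (1.64% of all genes tested were called higher), with a median of 0.18. JUNB, an AP-1 subunit, stood at 1.07, 1.08 and 1.02 (1.06 ± 0.07) and had the smallest adjusted p of all genes tested (1.7e-08 in limma). Of its 4 probes 3 were above 0 on every array, and the fourth had a mean of 0.11. JUN, its relative, stood at 0.28 at 30 min and at 0.69 and 0.65 at 1 h, so the 1 h arrays did not overlap the earlier one. The difference between the times was not called for JUN, and its call over the hour was lost without either 1 h array (0.49 and 0.47). FOS, the usual partner of both, stood at 0.26, 0.03 and 0.15 over 3 probes and did not pass. None of the 7 EGR, NR4A and SRF genes tested passed, and EGR1 gave 0.06, 0.13 and 0.03.

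ID2, an inhibitor of helix-loop-helix factors, stood at 0.98, 1.21 and 1.22 (1.14 ± 0.19), and its 3 probes had means of 0.91 to 1.30. BHLHE40, a helix-loop-helix repressor, was even across the arrays at 0.67, 0.63 and 0.61 (0.64 ± 0.09). ID1 and ID3, the relatives of ID2, were at -0.22 and 0.23 over the hour and did not pass. GADD45B, a stress-induced signalling protein gene, stood at 1.08, 0.48 and 0.76 on 1 probe. Its call was lost without any of the 3 arrays in turn (0.62 to 0.92, adjusted p up to 0.352 in limma).

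DUSP2, which encodes a nuclear phosphatase of ERK and p38 kinases, stood at 1.17, 1.04 and 0.88 (1.03 ± 0.10, adjusted p = 2.9e-06 in limma), and its 2 probes had means of 0.99 and 1.07. ZFP36 encodes tristetraprolin, which binds AU-rich messages of cytokines and marks them for decay. It stood at 1.02 at 30 min and at 0.45 and 0.47 at 1 h, and each of its 8 probes had a mean above 0 (0.29 to 0.79). The 30 min array was thus the highest for ZFP36, but the difference from 1 h was not called. Without that array ZFP36 was at 0.46 and just missed the threshold (adjusted p = 0.0502 in limma). DUSP1 was at 0.40, 0.09 and 0.20 over 8 probes and did not pass. No member of the RAS-ERK, stress kinase and PI3K-AKT genes that carry such signals was called (20 tested, between -0.15 and 0.34).

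**Figure D3:**
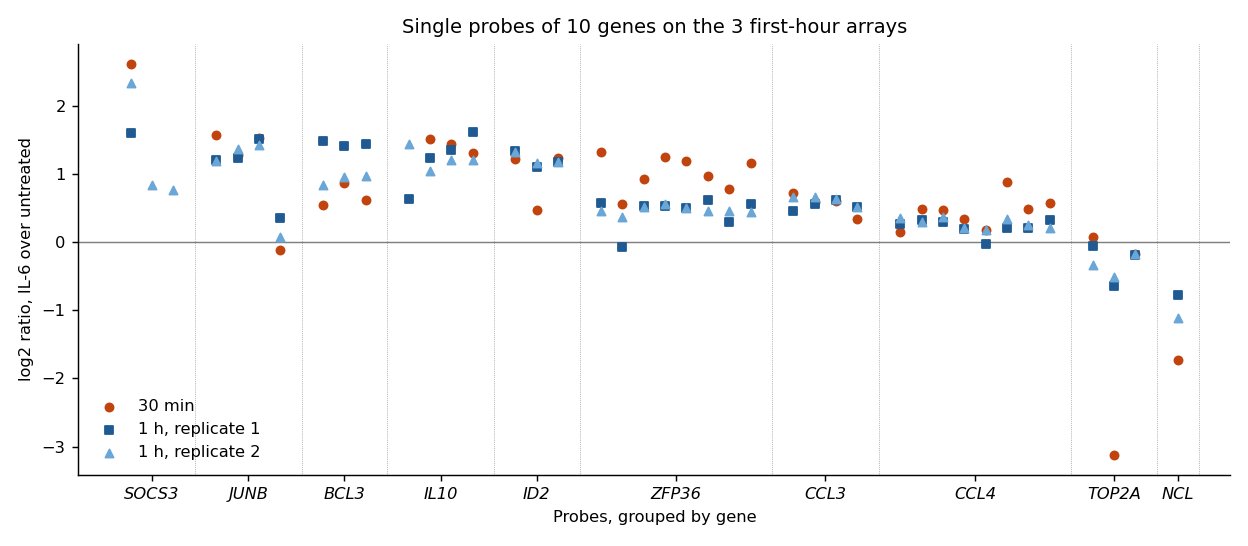
Log2 ratios of the single probes of 10 genes (horizontal axis, grouped by gene) on the 3 first-hour arrays (symbols). The 3 probes of BCL3 and the 4 of CCL3 are above 0 on every array, whereas only 1 SOCS3 probe has a value on all 3 arrays and TOP2A holds 1 probe at -3.13 at 30 min.

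Cytokine and chemokine genes rose in 4 of 37 tested (1.64% of all genes were called higher), with none lower and a median of 0.13. IL10 stood at 1.43, 1.22 and 1.23, all 3 arrays alike, and the 3 probes with a value on each array had means of 1.27 to 1.38. CCL3, a chemokine for monocytes and T cells, was at 0.56, 0.54 and 0.62, with all 4 probes above 0 on every array. Without any 1 of the arrays it kept its size (0.55 to 0.59) and missed the threshold (adjusted p up to 0.0796 in limma). Its neighbour CCL4 was at 0.45, 0.23 and 0.28 over 8 probes and did not pass over the hour (0.32 ± 0.12). CCL3 and CCL4 have near-identical neighbouring copies that such probes may not tell apart. TNFSF9, the ligand of 4-1BB, was at 0.63, 0.31 and 0.39, and the scavenger chemokine CXCL16 at 0.65, 0.38 and 0.18. Both were highest at 30 min, and without that array neither passed (0.35 and 0.28). Of the cytokines that did not pass, TNF was at -0.12 ± 0.09 and CXCL10 at 0.02. Among receptors, CXCR5, which draws B cells to follicles, rose along with GPR183 (2 of 24 tested, against 1.64% of all genes). CXCR5 stood at 0.50, 0.51 and 0.37 over 7 probes. Of the 4 probes with a value on every array 3 were above 0 throughout and 1 had a mean of -0.01. Without the 30 min array CXCR5 was at 0.44 (adjusted p = 0.0502 in limma).

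Of 45 NF-kB targets tested, 5 rose (BCL3, IL10, CCL3, GADD45B and JUNB) and none fell (1.64% of all genes tested were called higher and 0.609% lower), with a median of 0.07. Of these BCL3, IL10 and JUNB are on the STAT3 list as well. NFKBIA, the inhibitor gene that NF-kB itself switches on, was at 0.27, 0.22 and 0.34 (0.28 ± 0.14) and did not pass. NFKB1, the p50 precursor gene, was at -0.37, -0.68 and -0.37, also without passing. It passed with arrays scaled to the same spread, with the median of its probes and with the IL-6 arrays alone (adjusted p of 0.028 to 0.0456 in limma). Of 30 interferon-stimulated genes ISG20 alone, an RNA exonuclease gene, rose (0.41, 0.31 and 0.16), a share near the 1.64% of all genes, and the median of the list was 0.03. Its call was lost with the run of arrays as a random block (adjusted p = 0.060 in limma). With the mean of the other experiments subtracted it was at 0.02 (adjusted p = 0.983 in limma), and it was also lost without the 30 min array (0.23) and without 1 h replicate 1 (0.28).

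No gene of the B cell and germinal centre list was called (29 tested, -0.28 to 0.20), nor of the MHC class II list (9 tested, -0.09 to 0.20) or the BCL2 family (11 tested, -0.12 to 0.37). The plasma cell list held no call among 17 tested. Its members PRDM1 and IRF4, the factors that drive plasma cell differentiation, were at 0.35 ± 0.15 and 0.36 ± 0.14. Both passed with the IL-6 arrays alone (adjusted p = 0.0443 and 0.0382 in limma), and PRDM1 with scaled arrays as well (0.0248). ELL2, an elongation factor of that programme, was at -1.79, -0.89 and -0.72 on 1 probe, low on each array yet with an SE of 0.32 and an adjusted p of 0.083 in limma. Of 26 ribosomal protein genes, 1 (RPS15A) rose, near the 1.64% of all genes, and 22 lay above 0, with medians of 0.27, 0.14 and 0.11 on the 3 arrays. The list also lay mostly above 0 with IL-10 at 1 h (20 of 26), with the JAK inhibitor (19 of 24) and with the STAT3 siRNA (22 of 26). RPS15A stood at 0.65, 0.28 and 0.25 on 1 probe, and its call was lost with the run block (adjusted p = 0.114 in limma) and without any 1 of the arrays (0.27 to 0.47). Genes of glycolysis and hypoxia (23 tested, median 0.05), of heat shock and stress (16, -0.04) and of p53 (11, -0.06) held no call. Of 17 MYC-linked growth genes NCL alone was called, as lower (0.609% of all genes tested were called lower).

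Markers of other cell types were set beside these genes. Of the T and NK cell markers 11 of 29 were measured on all 3 arrays. Of these 1, CD3G, was called higher (0.83, 0.30 and 0.21), where 1.64% of all genes tested were called higher. On the probes of CD3G measured on every array its mean was 0.08 and the call was lost (adjusted p = 0.746 in limma). Of the myeloid markers and of the erythroid and stromal markers 8 of 20 each were measured, with no call and medians of 0.02 and 0.02. These are ratios, so whether the markers were at or near 0 in level was not measured, and their part in the results was not tested.

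The 12 highest called genes also held genes outside the lists. EMB, a cell-surface glycoprotein gene, stood at 1.05, 0.97 and 0.84, and TAC4, a tachykinin gene, at 0.96, 0.89 and 0.89, each on 1 probe. On the arrays of IL-10 at 1 h, of the JAK inhibitor and of the STAT3 siRNA at 24 and 48 h, TAC4 had 1 value (-0.045). Subtracting the other experiments thus drew little on those arrays for TAC4. ELF3, an ETS factor, was at 0.49 at 30 min and at 1.13 and 1.07 at 1 h. GNAL, a G protein subunit gene, gave 0.60, 1.19 and 0.81, and IL13RA2, the decoy receptor of interleukin-13, gave 1.02, 0.97 and 0.44 on 1 probe. No GNAL probe had a value on all 3 arrays. One probe gave 0.60 at 30 min and 1.33 in 1 h replicate 1, and the other gave 1.055 and 0.815 at 1 h. ELF3 lost its call without either 1 h array (0.81 and 0.78), and GNAL without 1 h replicate 1 (0.71). SGK1, a kinase gene of the PI3K pathway, was called as well at 0.89, 0.54 and 0.69, and without the 30 min array it was at 0.61 (adjusted p = 0.0665 in limma). It had 3 probes between 0.48 and 1.15, and the fourth, without a 30 min value, was at -0.21 and -0.25.

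Of the 19 genes that fell, 11 lay between -0.5 and -1 and 7 above -0.5. NCL was at -1.72, -0.77 and -1.11 on 1 probe, below 0 on each array. LBR, a receptor of the inner nuclear membrane, was at -1.10, -0.73 and -0.59, and HHEX, a homeobox factor of B cell progenitors, at -0.24, -0.65 and -0.68 with all 3 probes below 0 on each array. SH2B1, an adaptor of JAK2, was at -0.55, -0.67 and -0.36, also below 0 on each array. RAP1GAP2, a brake on the small G protein RAP1, was at -0.39, -0.63 and -0.82 on 1 probe. It was the only one of the 12 lowest genes that kept its call under all 14 alternatives and left-out arrays, of which those on probes could not change its estimate. LBR lost its call without the 30 min array (-0.66), HHEX without either 1 h array (-0.45 and -0.46) and SH2B1 without 1 h replicate 1 (-0.45). With the mean of the other experiments subtracted LBR (-0.58) and HHEX (-0.46) were not called either. LBR also lost its call with a robust and trended variance (adjusted p = 0.19 in limma). It had 1 probe, with 1 value (-0.335) on the arrays of IL-10 at 1 h, of the JAK inhibitor and of the STAT3 siRNA at 24 and 48 h. TOP2A, the topoisomerase of dividing cells, owed its value to 1 of 3 probes, which stood at -3.13 at 30 min. Without that array TOP2A was at -0.32 and not called. It was the only called gene of 39 cell cycle genes, whose median was 0.01 (0.609% of all genes tested were called lower).

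FCHSD2 was at -0.27 and -0.12 on 1 probe and at -1.98 in 1 h replicate 2 on another, and without that array it was at -0.19 with no call. The others of the 12 lowest genes, PRPF38B, TASOR2, DNAJC2, KEAP1 and HMGN1, had means of -0.75 to -0.53. PRPF38B acts in splicing, DNAJC2 in protein folding at the ribosome, KEAP1 in the oxidative stress response and HMGN1 in chromatin. Without the 30 min array PRPF38B was at -0.40, TASOR2 at -0.40, DNAJC2 at -0.73, KEAP1 at -0.50 and HMGN1 at -0.54, none of them called. Of the 19 lower genes 10 had 1 probe, against 9 of the 51 higher genes and 31.3% of all genes tested. With the mean of the other experiments subtracted, NCL was at -0.81 and no longer called (adjusted p = 0.282 in limma), and without 1 h replicate 2 (-1.25) and without the 30 min array (-0.94) it was not called either. A gene's dye bias cannot be told apart from its response where every array carries the same dye order, as here.

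At 1 h alone, 30 of 3447 genes were called (0.870%), 25 higher (0.725%) and 5 lower (0.145%). Scaled to the same spread, the arrays gave 79 higher and 29 lower, and with the IL-6 arrays alone the count was 8, all higher. Without replicate 2 the count was 17 and without replicate 1 it was 22. SOCS3 (1.46 ± 0.18), IL10 (1.22 ± 0.21), ID2 (1.22 ± 0.24), BCL3 (1.19 ± 0.13), ELF3 (1.10 ± 0.21), JUNB (1.05 ± 0.09) and GNAL (1.00 ± 0.19) were 7 of the 8 highest. The eighth, HOXD9, stood at 0.63 and 2.95 on 2 different probes, so its mean of 1.79 mixes them. The genes called lower were FCHSD2, WNT6, RAP1GAP2, HHEX and SH2B1. WNT6, a signalling ligand gene, was at -0.74 and -1.16. JUN and RHOH, a small GTPase gene of blood cells, were also called higher, RHOH at 0.60 and 0.72 after 0.04 at 30 min.

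At 30 min alone, 52 of 3354 genes were called (1.55%), 27 higher (0.805%) and 25 lower (0.745%). There is 1 array, so its error is assumed to be that of the other groups. SOCS3 (2.62 ± 0.25), IL10 (1.43 ± 0.29), DUSP2 (1.17 ± 0.18) and JUNB (1.07 ± 0.13) were among the 8 highest, and each was higher at 30 min than in either 1 h array, but for JUNB, which was level. KLF11, a zinc finger factor, was at 2.04 on 1 probe that had no value in 1 h replicate 1 and stood at 1.07 in replicate 2. SV2B, CEP57L1 and INSR, the insulin receptor gene, were at 1.34, 1.26 and 1.12. INSR rested on 1 probe at 30 min, which gave 0.52 and 0.03 at 1 h. The 8 lowest were PRPF38B, RHOT1, TASOR2, TBRG1, C10orf12, LBR, TOP2A and DESI2, from -1.47 to -1.06. On the probes with a value on all 3 early arrays the count was 24.

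Between 30 min and 1 h, 5 of 3119 genes were called (0.160%). The 30 min side is 1 array with no spread of its own, so the test borrows its error from the other groups and compares that array with the 1 h arrays. On probes measured on all 3 arrays no gene was called, and with the IL-6 arrays alone none was either. At an unadjusted p under 0.05, limma gave 189 of 3119 genes in the fit of all arrays, where 155.95 are expected if no gene differs. C10orf12, DESI2, PRKCE and ITGAM were higher at 1 h and IL32 was lower, with 4 higher (0.128%) and 1 lower (0.0321%). IL32, a pro-inflammatory cytokine gene, was at 1.03 at 30 min and at -0.13 and -0.03 at 1 h, but no IL32 probe had a value on all 3 arrays. The probe behind the 30 min value stood at 0.53 in 1 h replicate 2. ITGAM, the integrin chain of myeloid cells, was at -0.95 and then at 0.06 and 0.12. Without either 1 h array in turn the count was 8. At 30 min all 5 genes were measured by 1 probe, but for ITGAM with 2.

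The early genes were then set against IL-6 at 3, 6 and 24 h in the same cells. Several of the highest genes were lower from 3 h on. IL10 went from 1.22 to 1.43 in the first hour to between -1.06 and 0.19 on the 5 later arrays, a difference of 1.56 ± 0.21 (adjusted p = 2.9e-04 in limma). DUSP2 differed by 1.11 ± 0.13 and lay between -0.40 and 0.05 later. JUNB differed by 0.91 ± 0.09, with later values of 0.05 to 0.26. SOCS3 differed by 1.32 ± 0.18 and kept later values of 0.45 to 0.60, lower than in the first hour but above 0 on all 5 arrays. In each of these 4 genes the early and the later arrays did not overlap. How many of all 3015 genes tested showed such a gap was not counted. The SOCS3 value came from 1 probe at 30 min and in 1 h replicate 1, and from 3 probes in 1 h replicate 2. The probes behind its later values are not given here, so a part of probe mix in its difference was not tested. Over all genes, 13 of 3015 differed (0.431%), 10 higher in the first hour (0.332%) and 3 lower (0.0995%), and 8 without the 30 min array. With the run of arrays as a random block 38 differed. Both groups of arrays are ratios to control cells, and the labels do not say whether they shared control RNA.

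A pair of chemokine genes changed side. CCL3 was at 0.54 to 0.62 in the first hour and at -0.35 to -0.78 from 3 h on, a difference of 1.17 ± 0.15 (adjusted p = 2.2e-04 in limma). CCL4 was at 0.23 to 0.45 and then at -0.22 to -0.99, a difference of 0.93 ± 0.15. All 3 early arrays lay above 0 and all 5 later arrays below it in both genes, and how many of all genes tested did so was not counted. ZFP36 returned to between -0.09 and 0.06 (0.66 ± 0.11), and BHLHE40 to between -0.02 and 0.23 (0.58 ± 0.12). IFI44L, an interferon-stimulated gene, stood between -0.04 and 0.27 early and between -0.29 and -1.68 later, so its difference of 1.02 ± 0.17 came with low later values. The probe listed under the symbol Hoxb4 differed by 0.79 ± 0.17.

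TCF12, a helix-loop-helix factor of B cells, was lower in the first hour by 0.52 ± 0.10: it stood at -0.07 to 0.10 early and at 0.40 to 0.72 later. RAP1GAP2 fell in the first hour and lay between -0.35 and 0.22 on the 4 later arrays that measured it. EGFR, the third gene lower in the first hour, was at -0.75, 0.09 and -0.35. Other early genes stayed up. GPR183 was at 0.50 to 0.83 on the 5 later arrays, BCL3 at 0.51 to 0.82, GLRX, a glutaredoxin gene, at 0.48 to 0.71, and SLC2A5, the fructose transporter gene, at 0.45 to 0.75. None of these 4 was called between early and later times, and in GLRX the early values of 0.48, 0.60 and 0.46 overlapped the later ones.

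**Figure D4:**
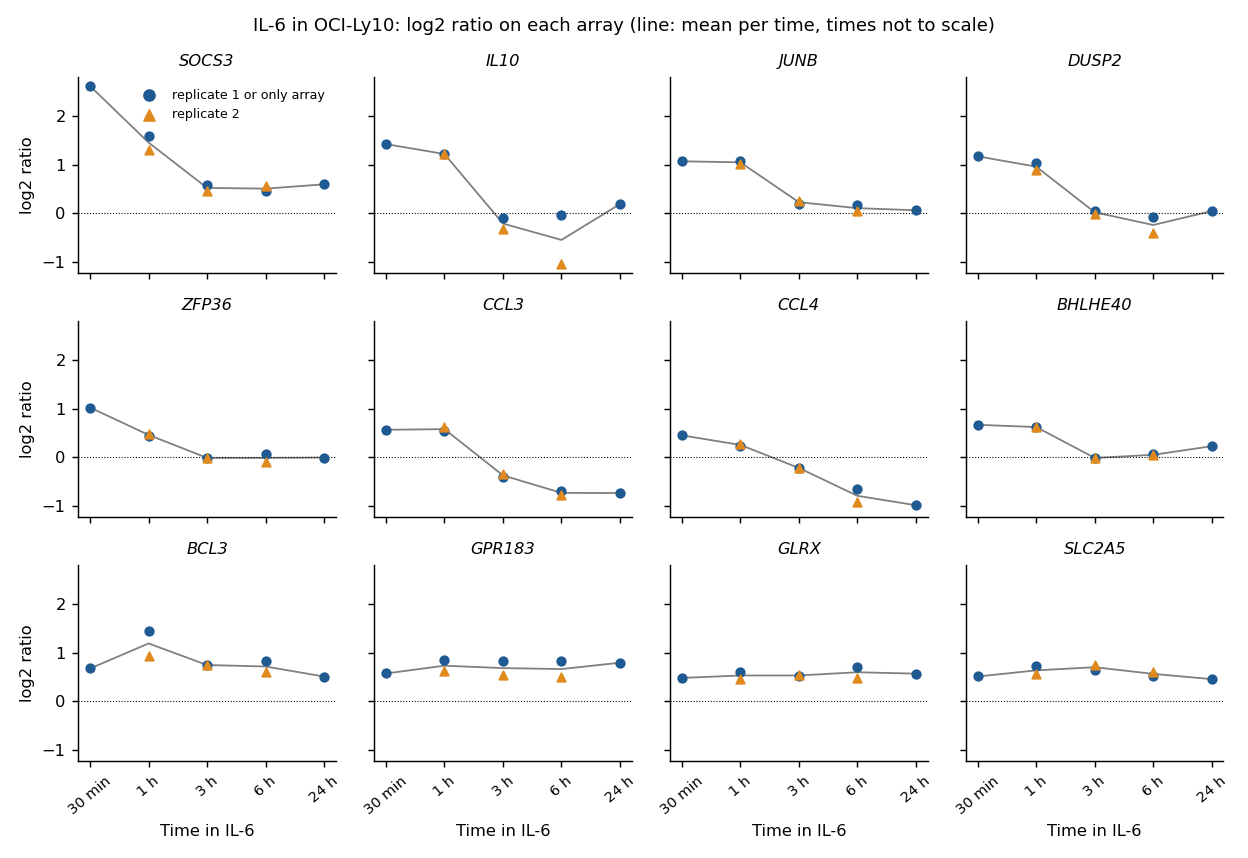
Log2 ratios of 12 called or list genes (1 panel each) against time in IL-6 at 30 min, 1, 3, 6 and 24 h (horizontal axis, not to scale); points are single arrays and the line joins the means. SOCS3, IL10, JUNB, DUSP2, ZFP36 and BHLHE40 are lower from 3 h on, CCL3 and CCL4 pass below 0, and BCL3, GPR183, GLRX and SLC2A5 stand at 0.45 or more on the later arrays.

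At the matched time of 1 h, IL-6 in OCI-Ly10 was compared with IL-10, given to OCI-Ly3 cells at 50 ng/ml, which signals through JAK1, TYK2 and STAT3 from another receptor. Line and cytokine differ together and cannot be told apart. Of 3349 genes 4 differed (0.119%), and 31 with the replicate numbers as a block. The 4 were 1 higher with IL-6 (0.0299%) and 3 lower (0.0896%). Without centring the arrays 3 were higher and 3 lower, and scaled to the same spread 13 were higher and 7 lower. Without replicate 1 of either cytokine 12 differed. TNFSF9 was at 0.31 and 0.39 with IL-6 and at 1.47 and 1.41 with IL-10, a difference of -1.09 ± 0.15 (adjusted p = 0.0022 in limma). PHLDA1 and HES1, the Notch target, were lower with IL-6 by 1.15 ± 0.20 and 1.31 ± 0.24. PHLDA1 was at 0.22 and 0.10 with IL-6, and HES1 at -0.09 and -0.35. SLC10A1, a bile acid carrier gene, was higher with IL-6 by 1.07 ± 0.18. With the arrays of these 2 experiments alone none of the 4 was called by limma. In the fit of all arrays 205 of 3349 genes had an unadjusted p under 0.05 in limma, where 167.45 are expected if no gene differs.

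Several early IL-6 genes stood well above 0 on the IL-10 arrays too. JUNB was at 1.11 and 0.91, DUSP2 at 1.17 and 0.80, BCL3 at 1.66 and 1.22, ZFP36 at 1.29 and 0.97, JUN at 1.16 and 1.28, and CXCR5 at 1.01 and 0.77. Each of these 6 was called at 1 h of IL-10, where 0.969% of 4336 genes were called and 0.623% were called higher. Of the 51 genes raised by IL-6, 49 were tested there and 12 were called higher, the other 6 being ELF3, GLRX, GPR183, SGK1, SLC35A2 and TNFSF9. Of the 19 lower genes 17 were tested and 1, HHEX, was called lower (it fell by 0.66). SOCS3 was at -0.13 and 0.63 and IL10 at 0.21 and 0.39 with IL-10, and neither was called. For both genes the 1 h IL-6 arrays lay above the IL-10 arrays, but the difference was not called. BHLHE40 was at 0.02 and -0.14 with IL-10, against 0.63 and 0.61 with IL-6.

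JAK inhibitor I, which blocks JAK family kinases, was given to OCI-Ly10 cells at 5 uM for 3 and 6 h with no cytokine named, so agents and times do not match those of IL-6 and the values are set side by side. Of the genes raised by IL-6, DUSP2 fell by 1.08 with the inhibitor (-1.35, -1.45, -0.65 and -0.87) and BCL3 fell by 0.76 (-0.998, -0.92, -0.54 and -0.58). GPR183 fell by 0.80, ELF3 by 0.67, CCL3 by 0.48 and BHLHE40 by 0.32 on the log2 scale. These 6 of the 49 genes tested there were called lower, where 3.42% of 4264 genes were called, 2.30% lower and 1.13% higher. ISG20 was called higher with the inhibitor, as with IL-6 (0.25, adjusted p = 0.0242 in limma), and none of the 18 lower genes tested was called. SOCS3 was at 0.53, 0.15, -0.09 and 0.27, JUNB at -0.45, -0.30, 0.19 and 0.04, and neither was called. GADD45B (-0.54) and ID2 (-0.41) were not called either. With the STAT3 siRNA at 24 and 48 h, 49 of the 51 higher genes were tested, and 2 were called lower and 2 higher. GPR183 fell by 0.73 and was below 0 on all 4 arrays (-0.44 to -1.02), and EMB fell by 0.54 (-0.24 to -1.28, adjusted p = 0.0238 in limma). CCL3 stood at 0.36 to 0.61 (0.48, called higher), and ISG20 was called higher as well (0.22). Of the 18 lower genes tested NEDD1 was called, and fell by 0.44. Of 3947 genes 4.03% were called with the siRNA, 2.61% lower and 1.42% higher. BCL3, JUNB and DUSP2 were at -0.15, 0.19 and 0.01 with the siRNA and were not called.

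**Figure D5:**
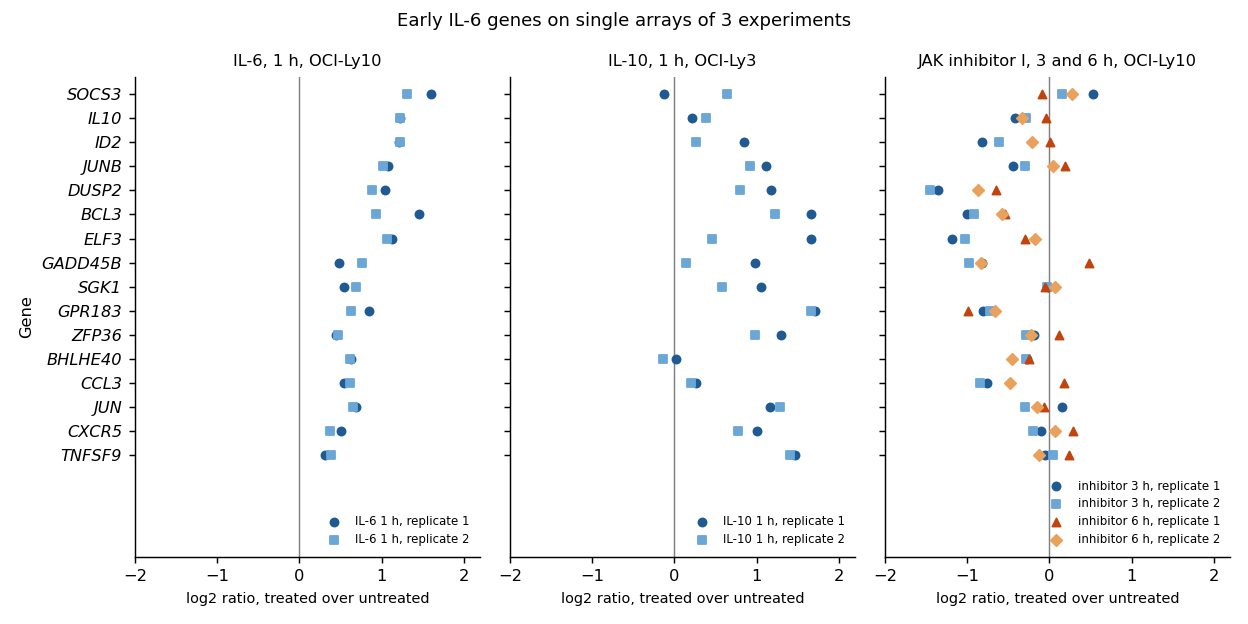
Log2 ratios of treated over control cells (horizontal axes) for 16 called early IL-6 genes (vertical axis) on the arrays of IL-6 at 1 h in OCI-Ly10, IL-10 at 1 h in OCI-Ly3 and JAK inhibitor I at 3 and 6 h in OCI-Ly10; symbols are single arrays. DUSP2, BCL3 and GPR183 lie above 0 in both cytokine panels and below 0 on all 4 inhibitor arrays, while SOCS3 lies at -0.13 to 0.63 outside the IL-6 panel.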

How the data were processed

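Samples were 2-colour arrays of cell lines, hybridised with Cy5-labelled RNA of treated cells and Cy3-labelled RNA of control cells, with no dye swap, per the labels. The authors deposited log ratios of both channels, already centred near 0 on each array, which are read here as log2 values of Cy5 over Cy3, with base and direction unstated. Of 15246 probes, 10169 had 1 gene symbol in the platform table, 5073 had none and 4 had several. All 40 columns were used. Each array was centred on its median, probes were averaged per gene, and limma 3.58.1 (R 4.3.3, statmod 1.5.0) fitted a mean for every experiment and time over all 40 arrays, so that the 30 min array takes its error from the other groups. Tests against 0 do not hold the control RNA's own spread. A gene was tested if it had a value on all 3 first-hour arrays (for 1 h and 30 min, on the arrays of that time) and called at a Benjamini-Hochberg adjusted p under 0.05. The fit was tested on simulated data with independent normal errors on each array. These held no correlation within runs and no dye bias, so that check says nothing about either. A difference that was not called is not shown to be absent.

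Genes are named if they were among the 12 highest or lowest called over the first hour with 1 sign on all arrays, among the 8 highest or lowest in another comparison, or in 1 of 21 gene lists. Other called genes (RHOH, SGK1, SLC35A2, NEDD1, GLRX, SLC2A5, STC1, NEAT1 and RGS16) were named after their values were seen. The members and lists were chosen with earlier results of these data known. Arrays were assigned to runs by gaps over 50 in their identifiers, and the labels do not say what a run is. The 30 min array and 1 h replicate 1 fell in run 2, and 1 h replicate 2 fell in run 1. The replicate numbers of the labels were taken to pair arrays, since the differences between replicates 2 and 1 correlated across times (0.229 for 1 and 3 h, 0.185 for 1 and 6 h, 0.220 for 3 and 6 h). Alternatives covered centring, scaling, probe summary, single probes, the arrays in the fit, the run and the replicate number as blocks, the variance model, the weights of the times, the genes tested, the mean of the other experiments, and each left-out array.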

Additional observations from a re-analysis of the deposited data

Results flagged for a closer look

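Between 30 min, which is 1 array, and 1 h, 5 genes were called by limma's test of the difference, with the error of the 30 min array borrowed from the other groups (log2, 1 h minus 30 min): C10orf12 by 1.21 ± 0.22, DESI2 by 1.16 ± 0.20, PRKCE by 1.06 ± 0.21, ITGAM by 1.03 ± 0.16 and IL32 by -1.10 ± 0.18, mean ± SE. Each was measured by 1 probe at 30 min, but for ITGAM with 2. On the probes with a value on all 3 arrays none of the 3119 genes was called, and none was with the IL-6 arrays alone.

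Between the first hour and 3 to 24 h, 13 genes differed by the same kind of test. Higher in the first hour were IL10 (1.56), SOCS3 (1.32), CCL3 (1.17), DUSP2 (1.11), IFI44L (1.02), CCL4 (0.93), JUNB (0.91), the probe listed as Hoxb4 (0.79), ZFP36 (0.66) and BHLHE40 (0.58). Lower were EGFR (-0.67), RAP1GAP2 (-0.65) and TCF12 (-0.52).

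Between IL-6 in OCI-Ly10 and IL-10 in OCI-Ly3 at 1 h, 4 genes differed: SLC10A1 by 1.07, TNFSF9 by -1.09, PHLDA1 by -1.15 and HES1 by -1.31. The line and the cytokine cannot be told apart here.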

How the results depend on the processing

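Each comparison was refitted with 1 choice changed at a time, and counts are of genes called by limma. Over the first hour the 70 calls became 202 with arrays scaled to the same spread, 126 with the IL-6 arrays alone and 45 with the mean of the other 5 experiments subtracted, and 30 to 68 without an array in turn. At 1 h the 30 calls became 108 with scaled arrays, 8 with the IL-6 arrays alone and 49 with the other experiments subtracted, and 17 to 22 without an array. At 30 min the 52 calls became 34 with the IL-6 arrays alone, 80 with the run of arrays as a random block and 24 on probes measured on all 3 arrays. A fit without the 30 min array gives no value at that time. For 1 h minus 30 min the 5 calls became 0 with the IL-6 arrays alone, 12 with the run block, 3 with a robust and trended variance, 0 on the same probes and 8 without either 1 h array. For the first hour minus later times the 13 calls became 33 with scaled arrays, 20 with each probe tested alone, 38 with the run block and 8 to 19 without an array. For IL-6 minus IL-10 the 4 calls became 20 with scaled arrays, 0 with the arrays of both experiments alone, 2 on the same probes and 5 to 12 without an array. The cause was not tested.

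With the replicate numbers as a block, the pairing of the labels, IL-6 minus IL-10 gave 31 calls against 4. The block left the other counts within 1.5 times (78, 37, 48, 6 and 11) and kept all 70 calls of the first hour, and CISH and IL2RB passed with it.

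With the mean of the other experiments subtracted, 3 genes without a call changed sign over the first hour: PTPN1 to -0.0917, STAT3 to 0.0302 and TNF to 0.32. Over the refits of the 70 called genes, 749 values kept their direction and their call, 224 lost the call with the direction kept, and none changed direction. All 70 had 1 sign on all 3 arrays, so refits that drop, reweight or scale arrays could not change the direction. The setting with the same probes on every array was chosen after seeing the data. The arrays measured ratios only, on 3 arrays, so signal over background is unknown and their number limits the precision.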

Other observations

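Genes outside the lists made up 49 of the 70 called over the first hour. In 33 of the 51 higher genes the 30 min array was the highest of the 3, and in 12 of the 19 lower genes it was the lowest. The 30 min value was the furthest from 0 in 45 of the 70, and in 46.7% of all genes tested. Of the 51 higher genes, 10 lay below 0.2 on every later IL-6 array that measured them and 18 lay above 0 on every one. The shares of all genes tested that did so were not counted, so these numbers do not set the higher genes apart from others.

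Several called genes had no place in the text above. STC1, which encodes the secreted hormone stanniocalcin, stood at 0.87, 0.48 and 0.32 at 30 min and in 1 h replicates 1 and 2, and NEAT1, a long non-coding RNA of nuclear paraspeckles, at 0.53, 0.36 and 0.48. RGS16, a brake on G protein signalling, stood at 0.64, 0.48 and 0.28. These were chosen after their values were seen, and each lost its call without the 30 min array (STC1 at 0.40, NEAT1 at 0.42 and RGS16 at 0.38). STC1 and NEAT1 also lost it without either 1 h array, and RGS16 without 1 h replicate 1 (0.46).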
